A study of Mus musculus with 16 samples.

Results

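Goblet cell mucus genes were followed in mouse lung: Muc5b, Clca1, Fcgbp and Slc26a4, which are 4 of the 9866 genes that could be named on these arrays and 4 of the 7276 tested. These members were chosen from earlier results of the same arrays, in which their level after ovalbumin in BALB/c lung stood out, so the rise in BALB/c and its difference from BALB-RAG are given below as descriptions, with no test. Each gene was read by 1 probe set. Many probe set labels in the table were displaced and were realigned first, and the names of Muc5b and Fcgbp rest on a direction of realignment that was set after the data were seen. Whole lung RNA was hybridised to 16 Affymetrix arrays, 4 in each of 4 groups: BALB/c given PBS, BALB/c given ovalbumin (OVA), BALB-RAG given PBS and BALB-RAG given OVA, all collected on day 22, the day after the last exposure. RAG names the recombination-activating genes, without which T and B lymphocytes cannot assemble antigen receptors; which of these genes is altered, the age and sex of the mice and the exposure schedule are not given in the sources used here. Whether replicates were separate animals is not stated; the p-values therefore measure spread among these samples only, which could be technical.

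Goblet cells are secretory cells of the airway epithelium that store mucins in granules and release them as mucus. They are few in the lungs of unexposed laboratory mice, and become many in allergic airway inflammation, where interleukin 13 acting through Stat6 on epithelial cells is a well-known inducer. Muc5b is a gel-forming mucin, the polymer that gives mucus its structure. Clca1 is a secreted protein of goblet cell granules and Fcgbp a large secreted mucus protein, and both are classical goblet cell products. Slc26a4, also called pendrin, is an anion exchanger of the apical membrane of airway cells. Values are log2 of GCRMA intensity, an array brightness corrected for background, and a value under log2 4 is called low. Median intensity was 18.2 to 20.5 and the share of probe sets above log2 4 was 52.1% to 53.5% per array. In whole lung, more goblet cells and more RNA per goblet cell cannot be told apart.

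The promoters of Fcgbp and Slc26a4 are shown to give the sequence just before the start of 2 of the members; those of Clca1 and Muc5b were not analysed here. Each line holds the 250 bases before the gene's start, 5′ to 3′ on the gene's own strand, taken from RefSeq for GRCm38.p6, with the TATA element in capitals. Fcgbp lies on the plus strand at chr7:28070986-28071235 and Slc26a4 on the minus strand at chr12:31559985-31560234.
Fcgbp promoter: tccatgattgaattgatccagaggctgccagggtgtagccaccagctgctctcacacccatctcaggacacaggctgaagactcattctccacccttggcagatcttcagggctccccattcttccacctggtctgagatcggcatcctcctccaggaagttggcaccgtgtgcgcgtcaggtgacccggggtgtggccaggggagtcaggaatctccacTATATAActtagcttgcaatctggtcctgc
Slc26a4 promoter: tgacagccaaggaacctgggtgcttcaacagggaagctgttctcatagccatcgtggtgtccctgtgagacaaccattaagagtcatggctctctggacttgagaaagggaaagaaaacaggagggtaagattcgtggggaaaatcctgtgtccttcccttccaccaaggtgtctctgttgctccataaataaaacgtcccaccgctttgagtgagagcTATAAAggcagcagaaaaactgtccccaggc
The capitals mark TATATAA starting at position -30 in Fcgbp and TATAAA starting at position -31 in Slc26a4, counted back from the start. TATAAA was found in 12.4% and TATATAA in 3.04% of all 32851 promoter windows of this length, searched on both strands, and either one in 13.8%. TTC and GAA separated by any 4 bases, a form bound by Stat6, TTCNNNGAA, a form bound by other Stat proteins, and TGTTTAC, a forkhead motif, were searched on both strands too. None of these letters was found in either of the 2 windows, against 5.85%, 7.02% and 3.17% of all windows. The TATA motifs were chosen after the sequences were seen, and a match is a description of letters only.

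All 4 genes were highest in BALB/c lung after OVA, where every array lay above each of the other 12 arrays. Clca1 had the largest difference, followed by Slc26a4, Fcgbp and Muc5b. Across all tested genes, 6.49% had the 4 BALB/c OVA arrays above the other 12, and 10.4% had them above the 4 BALB/c PBS arrays. After OVA in BALB/c 15.5% were called, 8.73% higher and 6.78% lower (limma, adjusted p under 0.05). Because the members were chosen for this rise, nothing is read from their count against those shares.

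**Figure D1:**
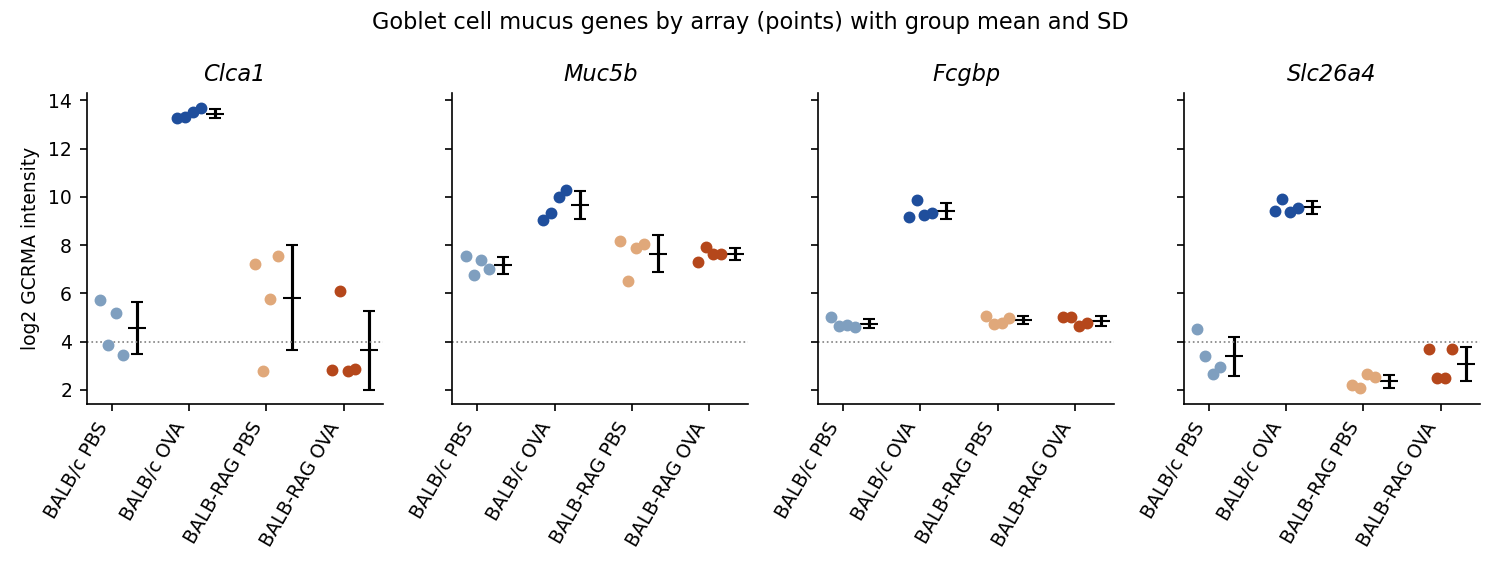
Log2 GCRMA intensity (vertical axis) of Clca1, Muc5b, Fcgbp and Slc26a4 on each array, by group (horizontal axis); points are arrays, bars are the group mean with its SD (n = 4), and the dotted line is log2 4. In each panel the BALB/c OVA arrays lie above all 12 others, from 9.06 upwards for Muc5b and from 13.29 upwards for Clca1.

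Muc5b, the gel-forming mucin, was already well above background without allergen. In BALB/c given PBS its log2 intensity was 7.53, 6.76, 7.37 and 7.01 on replicates 1 to 4. In BALB/c given OVA it was 9.06, 9.32, 9.998 and 10.30. The groups did not overlap, and the OVA minus PBS difference was 2.50 ± 0.34 (SE, n = 4 and 4), a 5.67-fold rise. Muc5b on arrays labelled BALB-RAG was 8.15, 6.51, 7.87 and 8.06 with PBS. With OVA it was 7.31, 7.94, 7.64 and 7.62. These groups overlapped with each other, and replicate 2 of the PBS group was the lowest of all 16 arrays.

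Clca1, the granule protein, spanned the widest range of the 4. In BALB/c given PBS it read 5.74, 3.87, 5.19 and 3.44, so 2 of the 4 arrays were low. In BALB/c given OVA it read 13.29, 13.30, 13.52 and 13.70, a narrow group with a mean of 13.45 ± 0.20 (SD, n = 4). The difference of 8.89 ± 0.92 (SE, n = 4 and 4), 476-fold on the intensity scale, was the largest rise of all 7276 tested genes. It was 422-fold once the low values were raised to log2 4. Clca1 on arrays labelled BALB-RAG read 7.21, 2.80, 5.76 and 7.53 with PBS and, with OVA, 2.81, 6.11, 2.78 and 2.86. Both of these groups held low and clearly measured arrays, 1 of 4 low after PBS and 3 of 4 low after OVA.

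Fcgbp, the large mucus protein, varied little within groups, with SDs of 0.17 to 0.33 (n = 4 each). In BALB/c given PBS it read 4.998, 4.63, 4.70 and 4.61 and in BALB/c given OVA 9.15, 9.88, 9.25 and 9.34. The difference was 4.67 ± 0.17 (SE, n = 4 and 4), a 25.5-fold rise that ranked 10 of 7276 by size. Fcgbp on arrays labelled BALB-RAG read 5.07, 4.71, 4.77 and 4.98 with PBS and, with OVA, 5.01, 5.01, 4.63 and 4.75. The 3 groups other than BALB/c OVA all lay between 4.61 and 5.07. Their intensities, 24.5 to 33.7, were little above the median intensity of the arrays, 18.2 to 20.5. The size of the rise and the small spread in these groups may therefore be limited by background.

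Slc26a4, the anion exchanger, was low nearly everywhere but in BALB/c given OVA. It read 4.52, 3.40, 2.67 and 2.95 in BALB/c given PBS, with 3 of 4 arrays low, and 9.42, 9.93, 9.36 and 9.54 in BALB/c given OVA. The difference was 6.18 ± 0.37 (SE, n = 4 and 4), 72.5-fold, or 43.2-fold with values under log2 4 set to 4, and ranked 6 of 7276. The arrays labelled BALB-RAG read 2.19, 2.09, 2.66 and 2.52 with PBS and, with OVA, 3.69, 2.47, 2.48 and 3.70, all 8 of them low. Slc26a4 was above log2 4 on 5 arrays, 4 of them BALB/c OVA, so it passed the filter on low values (above log2 4 on at least 4 arrays) only through the group where it was high. The other 3 members passed without that group.

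In the order of group means, neighbouring groups below BALB/c OVA overlapped for each of the 4 genes. For Slc26a4 the 4 BALB-RAG PBS arrays, at most 2.6577, lay just under the BALB/c PBS arrays, at least 2.6659, though 7 of these 8 arrays were low. The share of all tested genes separated in this way was not counted, so nothing is read from it. For Clca1 that order was BALB-RAG OVA at 3.64, BALB/c PBS at 4.56 and BALB-RAG PBS at 5.83. For Slc26a4 it was BALB-RAG PBS at 2.37, BALB-RAG OVA at 3.08 and BALB/c PBS at 3.38. For Muc5b these means ran from 7.17 to 7.65, and for Fcgbp from 4.73 to 4.88. After PBS alone, BALB-RAG minus BALB/c was 1.27 ± 0.92 for Clca1, 0.48 ± 0.34 for Muc5b, 0.15 ± 0.17 for Fcgbp and -1.02 ± 0.37 for Slc26a4 (SE, n = 4 and 4). The Slc26a4 difference is limited by background, with 7 of the 8 arrays low.

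On arrays labelled BALB-RAG, none of Muc5b, Fcgbp and Clca1 passed the test for OVA against PBS. Across all tested genes 0.165% passed there, which is 12 genes, and 562 had an unadjusted p under 0.05. The number that passed, 12 in the main fit, was 41 with the replicate block and 67 with a term for replicates 1 and 2 against 3 and 4. It was 42 without OVA replicate 2. Muc5b differed by -0.02 ± 0.34 (SE, 95% interval -0.75 to 0.70), with a limma adjusted p of 0.999 and an exact two-sided permutation p of 1. Fcgbp differed by -0.03 ± 0.17 (95% interval -0.39 to 0.32), with a limma adjusted p of 0.999 and an exact permutation p of 0.743. Its values on these arrays were little above the array medians, so that difference may be limited by background. Slc26a4 was low on all 8 of these arrays, so no difference was measured there and no test is given. Clca1 was lower by estimate, at -2.19 ± 0.92 (95% interval -4.14 to -0.23), with an unadjusted limma p of 0.0306, an adjusted p of 0.564 and an exact permutation p of 0.229. The Clca1 difference was -0.55 in replicates 1 and 2 and -3.82 in replicates 3 and 4. The smallest exact p that 4 against 4 arrays allow is 0.0286. The members were proposed with the difference between the OVA responses in view, which includes these arrays. These p-values are therefore not independent of that choice.

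The OVA response in BALB/c minus that on arrays labelled BALB-RAG was 11.08 ± 1.30 for Clca1, 5.46 ± 0.52 for Slc26a4, 4.70 ± 0.23 for Fcgbp and 2.53 ± 0.48 for Muc5b (SE of the fit). Raising low values to log2 4 gave 10.32 for Clca1 and 5.43 for Slc26a4. After OVA, BALB-RAG minus BALB/c was -4.55 ± 0.17 for Fcgbp and -2.04 ± 0.34 for Muc5b. Clca1 was 486-fold higher in BALB/c with the 3 low arrays of BALB-RAG OVA set to log2 4. Slc26a4 was at least 47.3-fold higher in BALB/c, with the 4 low arrays of BALB-RAG OVA set to log2 4. For all 4 genes the 4 BALB/c OVA arrays lay above the 4 BALB-RAG OVA arrays, a pattern that 13.6% of tested genes had. These comparisons share arrays with the one that chose the members.

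The arrays labelled BALB-RAG differed among themselves in transcripts of other cell types. Cd3d, a T cell receptor subunit, read 5.93, 5.52, 4.88 and 5.35 after PBS, close to the 4.98 to 6.15 of BALB/c given PBS. After OVA it read 2.50, 7.03, 2.32 and 2.38. Igha, the immunoglobulin A heavy chain, read 10.79, 8.45, 9.04 and 10.72 after PBS, above the 6.66 to 7.86 of BALB/c given PBS. After OVA it read 3.98, 10.97, 3.59 and 5.52. Not every B cell transcript was above BALB/c given PBS. Ighm, the immunoglobulin M heavy chain, read 7.25 to 8.75 after PBS against 8.95 to 10.15 there. Cd79b, a B cell receptor subunit, read 5.1 to 6.0 against 6.68 to 7.48. Over the 7 tested B cell genes the median BALB-RAG minus BALB/c difference after PBS was -0.8. Jchain, the immunoglobulin joining chain, was higher by estimate, at 1.28 ± 1.58 (SE). Lymphocyte transcripts on 5 of the 8 arrays go against the label BALB-RAG if it denotes loss of these genes, and a direction drawn from that label is a direction between libraries so labelled.

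A second set of transcripts split the same arrays another way. Krt13, a keratin of squamous epithelium such as that of the oesophagus, read 11.54 on PBS replicate 2, 11.25 on OVA replicate 1 and 11.34 on OVA replicate 4, and at most 3.17 on the other 13 arrays. Clca1 was 2.80, 2.81 and 2.86 on those 3 arrays. It was also 2.78 on OVA replicate 3, which lacked both Krt13 and the lymphocyte transcripts. Clca1 was 5.76 to 7.53 on the 4 arrays that had Cd3d and Igha without Krt13. Without the 3 arrays with squamous keratins, the Clca1 difference was -2.39 with a limma adjusted p of 0.678. The part of lymphocyte or squamous transcripts in the Clca1 values was not tested.

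**Figure D2:**
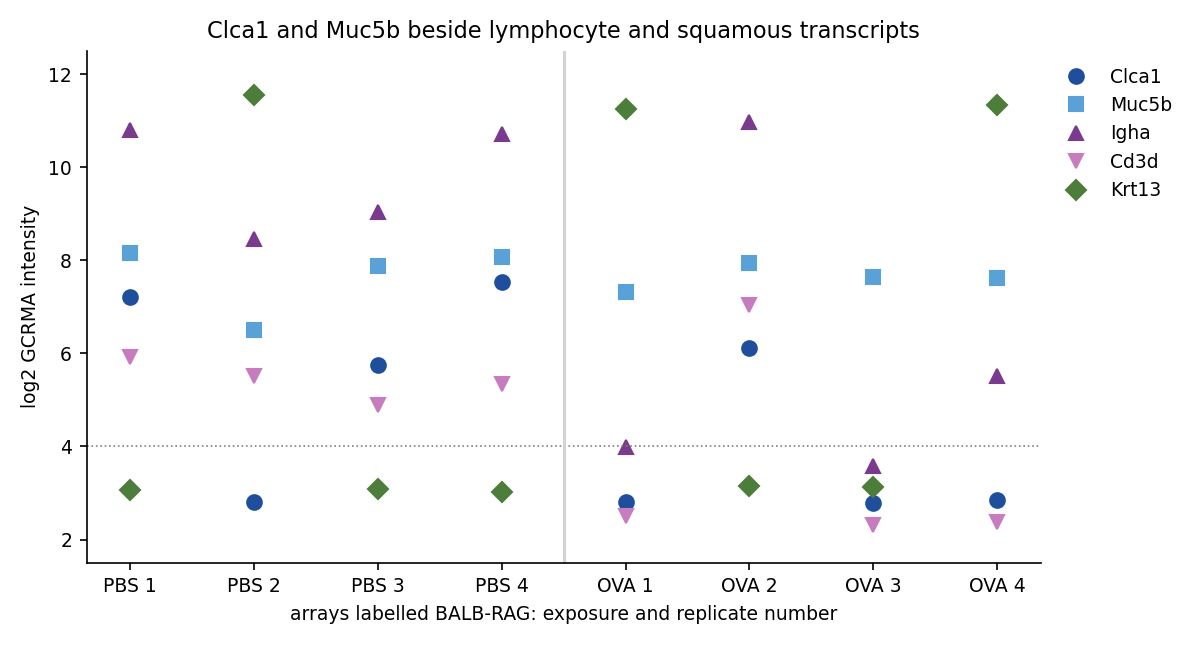
Log2 GCRMA intensity (vertical axis) of Clca1, Muc5b, Igha, Cd3d and Krt13 on the 8 arrays labelled BALB-RAG (horizontal axis, by exposure and replicate); each point is 1 array and the dotted line is log2 4. Clca1 is at 2.78 to 2.86 on 4 arrays, and Krt13 is above 11 on 3 of those.

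Within groups, Clca1 and Muc5b varied together. With each group mean removed, Pearson's r over 16 arrays was 0.78 and Spearman's rho 0.76, and r was 0.67 on 14 arrays without the 2 farthest in Clca1. For Clca1 and Fcgbp the same r was 0.48, rho 0.57 and r on 14 arrays 0.41. For Clca1 and Slc26a4 it was 0.02, and for Fcgbp and Slc26a4 0.45, falling to 0.17 on 14 arrays. Muc5b with Fcgbp gave 0.24 and with Slc26a4 0.05. These 6 values are descriptions: the 2 genes of a pair share an array and its normalisation, and Slc26a4 is mostly low. By replicate numbers, the BALB/c difference from replicates 1 and 2 was 8.49 for Clca1, 2.05 for Muc5b, 4.70 for Fcgbp and 5.72 for Slc26a4. From replicates 3 and 4 it was 9.30 for Clca1, 2.96 for Muc5b, 4.64 for Fcgbp and 6.64 for Slc26a4.

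**Figure D3:**
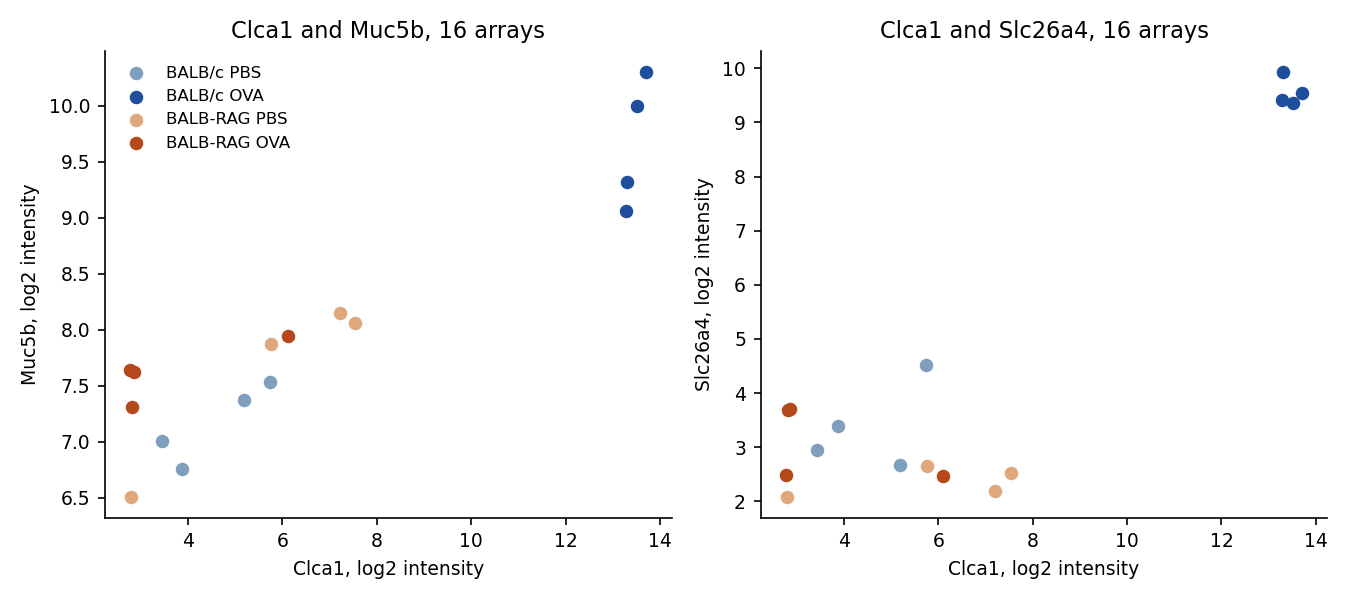
Log2 GCRMA intensity of Clca1 (horizontal axes) against Muc5b and Slc26a4 (vertical axes), 1 point per array, coloured by group. Among the 12 arrays outside BALB/c OVA, Muc5b is higher where Clca1 is higher (r = 0.71), and Slc26a4 is not (r = -0.22).

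The genes most like the members over all 16 arrays, by Pearson's r, included each other and several genes of immune cells. Clca1 was nearest to Irf4, a transcription factor of lymphoid and myeloid cells (0.947), to Fcgbp (0.943) and to Chil4 (0.943). Muc5b was nearest to Clca1 (0.933), to Fscn1, an actin-bundling protein (0.924), and to Bpifb1, a secreted airway protein (0.906). Fcgbp was nearest to Chil4, a chitinase-like protein (0.994), to the chemokine Ccl8 (0.981) and to the eosinophil-associated ribonuclease Rnase2a (0.980). Slc26a4 was nearest to Fcgbp (0.977), to the beta-glucan receptor Clec7a (0.974) and to Chil4 (0.974). By mean r over the members the first 5 were Chil4 (0.952), Irf4 (0.925), Rnase2a (0.925), Slamf6 (0.924) and Cxcl9 (0.923). These arrays form a cluster of 4 and a cluster of 12, so r mostly records the gap between them. Chil4 read 11.83, 12.42, 11.56 and 12.19 in BALB/c given OVA and 4.51 to 5.48 elsewhere.

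Of 29 genes on a goblet cell and mucus list, 19 were placed and 14 tested. Muc5ac, Spdef and Foxa3 were on the list but were not placed. This list and those below were drawn up with earlier results of these data known, so their counts and p-values are descriptions. Of the 10 goblet list genes tested other than the members, Itln1 passed the filter only through BALB/c OVA. Of the other 9, 4 rose in BALB/c after OVA and 0 fell, with a median difference of 0.21, against 8.15% called higher and a median of -0.01 over the 7145 genes that passed the filter without BALB/c OVA. Agr2, a protein disulphide isomerase needed for mucin folding, rose by 2.73 ± 0.47 (SE, limma adjusted p 0.000991). It read 4.62, 3.31, 3.13 and 3.16 in BALB/c given PBS, mostly low, so the size of its rise is limited by background. Tff2, a trefoil peptide secreted with mucus, rose by 2.61 ± 0.46 (adjusted p 0.00103). Galnt6, which starts mucin O-glycans, rose by 1.59 ± 0.37 and Bpifb1 by 1.47 ± 0.33 (limma adjusted p 0.00764 and 0.00574). Galnt6 read 4.84, 3.93, 5.38 and 3.30 in BALB/c given PBS, so some of these values were low too. A second Galnt6 probe set, mostly low, overlapped between the groups. It read 3.46, 3.31, 3.40 and 4.47 in BALB/c given PBS and 4.92, 4.67, 3.31 and 3.41 in BALB/c given OVA. The lectin Itln1 had a mean of 5.19 in BALB/c given OVA and was low on all other arrays.

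The other 5 tested genes of that list did not pass. Agr3, a homologue of Agr2, differed by -0.20, the lectin Zg16 by -0.02, the transcription factor Creb3l1 by 0.21 and the protease Tmprss2 by -0.34. The protease Ctse had 2 probe sets that disagreed, at -0.28 for the brighter one, which was tested, and 0.99 for the other. Tff3, Gcnt3, Retnlb, Creb3l4 and Capn9 were placed but too low to test. In the BALB-RAG comparison none of the list passed by limma, where 0.165% of all tested genes passed. Ctse differed there by -1.88 with a limma adjusted p of 0.310; it was -1.17 without PBS replicate 2, which had squamous keratins, and -0.24 by the other probe set.

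**Figure D4:**
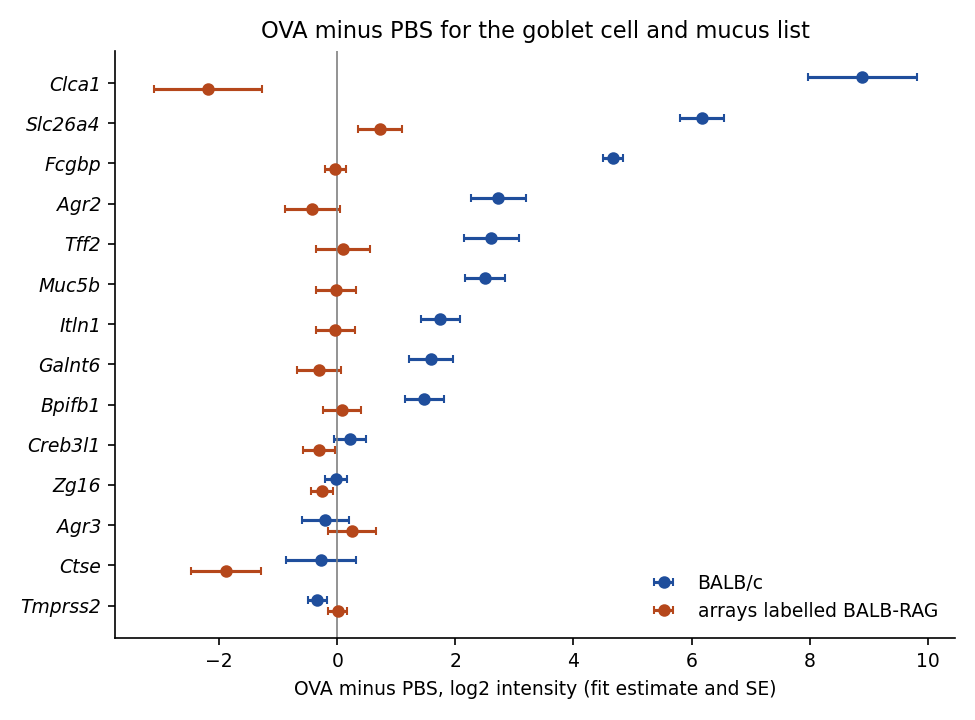
OVA minus PBS difference in log2 intensity (horizontal axis) for the 14 tested genes of the goblet cell and mucus list (vertical axis), in BALB/c and on arrays labelled BALB-RAG; points are fit estimates and bars their SE. Clca1, Slc26a4 and Fcgbp lie furthest to the right in BALB/c, at 8.89, 6.18 and 4.67, and the BALB-RAG estimates run from -2.19 to 0.72.

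Genes of the signals known to act on goblet cells were described from the same fit. Over all tested genes, 8.73% were called higher in BALB/c after OVA and 6.78% lower. Of 8 tested genes of a type 2 cytokine, receptor and Stat6 list, 3 rose in BALB/c and 0 fell: the alarmin Il33 by 1.30 ± 0.23, the receptor subunit Crlf2 by 0.99 ± 0.21 and the kinase Tyk2 by 0.42 ± 0.13 (SE; limma adjusted p 0.00114, 0.00467 and 0.0434). Stat6 itself differed by 0.09 (adjusted p 0.704). Il13, which acts on goblet cells, was under log2 4 on every array, at 3.27 to 3.47 in BALB/c given OVA, so its level was not measured above background. Of 13 tested growth factor and Notch genes 3 fell, among them the Notch ligand Dll1 by 1.40 on the log2 scale, and 0 rose. Of 9 tested airway regulators, Foxa1 fell by 0.69 on the log2 scale and the others did not pass. Spdef and Foxa3 were on that list of 12 but were not placed, so nothing was measured for them. Il4 and Il5 of the type 2 list were not placed either.

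Other genes of mucus make-up were tested in the same way, beside the same shares of 8.73% called higher and 6.78% lower over all tested genes. Of 13 ion and water transport genes other than Slc26a4, 0 rose and 3 fell in BALB/c: the sodium channel subunits Scnn1b (-0.96 ± 0.18) and Scnn1g (-0.74 ± 0.17), and the water channel Aqp1 (-0.69 ± 0.18). The chloride channels Cftr and Ano1 differed by 0.19 and 0.01 and did not pass. Of 16 glycosylation genes 3 rose, Galnt6, Galnt7 by 1.43 ± 0.19 and St6galnac4 by 1.19 ± 0.34, and 0 fell. The second probe sets of Galnt6 and St6galnac4 overlapped between the BALB/c groups, and that of Galnt7 did not. The membrane mucin Muc4 had a mean of 4.78 in BALB/c given OVA and was low on all other arrays, so it has no test. Muc13 also passed the filter only with BALB/c OVA, and of the other 2 tested mucins 0 passed by limma, Emcn at 0.03 and Cd164 at -0.17. In the BALB-RAG comparison none of these lists had a gene past the test by limma, where 0.165% of all tested genes passed. Ano1 fell just short there, at -0.86 ± 0.17 (SE, limma adjusted p 0.0534).

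Markers of other lung cells moved in the BALB/c comparison too, where 8.73% of all tested genes were called higher and 6.78% lower. Of 8 tested club cell genes 6 fell, with a median of -0.83, and the summed intensity of the list was 40000 to 44900 after PBS and 20800 to 31800 after OVA. General epithelial markers summed to 2750 to 4590 after PBS and 2770 to 4310 after OVA, and 0 of 5 tested genes passed by limma. Of 10 T cell genes that passed the filter without BALB/c OVA 6 rose, against 8.15% of all genes that passed that way. Cd5, Ctla4 and Icos passed the filter only with that group. The sums of the list were 302 to 421 after PBS and 569 to 1440 after OVA. The T cell sums on arrays labelled BALB-RAG were 291 to 395 with PBS and, with OVA, 178 to 564. The part of these changes in the members' values was not tested.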

How the data were processed

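Whole lung RNA of 16 samples was measured on 1 array each; per the labels' protocols, RNA was extracted in TRIZOL, and 6 µg gave the biotin-labelled cRNA. The deposited values are linear intensity made with GCRMA, per the submitters' processing notes, whose version those notes do not give. Log2 was taken and no further normalisation applied. The 4 arrays of a group limit the precision.

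Many labels in the deposited table stand beside the values of other probe sets, so 3 stretches of labels were realigned (14300 of 45101 labels, 9866 genes); other labels, among them a second Clca1 probe set, were not analysed here. Clca1 and Slc26a4 took values 64 rows above their labels. The second stretch, with Muc5b and Fcgbp, took values 47 rows below; an earlier description of this table gave the same distance above. The direction was set from probe sets of the same gene, using no group difference. Their median within-group correlation was 0.488 (389 pairs) at 47 rows below, -0.008 (278 pairs) at 47 rows above and 0.037 (272 pairs) as deposited. Each shift was scored by this median plus the correlation of mean levels between the probe sets. By that score 15 of 15 windows of labels were best at 47 rows below. The values of Muc5b and Fcgbp rest on this choice. The third stretch took values 16168 rows below. Gene names are those of the platform annotation.

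Genes with log2 above 4 on at least 4 arrays were tested (7276), each by its probe set with the highest mean, with limma 3.58.1 in R 4.3.3: 4 group means, empirical Bayes, Benjamini-Hochberg adjustment, threshold 0.05. The fit was tested on simulated data. The members and gene lists were chosen with earlier results of these data known. The text names the members, the measured goblet list genes and up to 4 called genes of other lists. It also names the genes with the highest r to the members. Cd3d, Igha, Ighm, Jchain, Cd79b, Krt13, Stat6, Il13, Cftr and Ano1 were added after their values were seen. So were other genes named for their low values. Alternatives were other filters, scalings, probe set rules, label positions and sample sets.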

Additional observations from a re-analysis of the deposited data

Results flagged for a closer look

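Clca1 on BALB-RAG OVA replicate 2 stood apart from the other 3 arrays of its group, at 6.11 against 2.78 to 2.86, with a gap of 0.976 of the group's range against a critical value of 0.829. Of 16 sets of 4 arrays (4 genes in 4 groups) this was the only such case, and with normal spreads chance alone marks about 1 set in 20. The other 3 arrays were under log2 4, where background narrows the spread, so that rate need not hold here. The same array read 7.03 for Cd3d and 10.97 for Igha, the highest of the 8 arrays labelled BALB-RAG. Without it the Clca1 difference on those arrays was -3.01 with a limma adjusted p of 0.204.

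The OVA response differed between BALB/c and arrays labelled BALB-RAG by 11.08 for Clca1, 2.53 for Muc5b, 4.70 for Fcgbp and 5.46 for Slc26a4 on the log2 scale, and by 10.32 for Clca1 and 5.43 for Slc26a4 with values under log2 4 set to 4. The members were proposed with this difference in view, so it was not tested again here.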

How the results depend on the processing

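The BALB/c rise of the 4 genes held its direction under every alternative that kept the realigned labels. With 1 array left out it ran from 8.52 to 9.29 for Clca1, 2.29 to 2.71 for Muc5b, 4.51 to 4.76 for Fcgbp and 5.94 to 6.56 for Slc26a4. It was 8.08 for Clca1, 4.02 for Fcgbp and 4.83 for Slc26a4 with 16 added before log2, and 5.43 for Slc26a4 with values under log2 4 set to 4, settings that compress low values by construction. With labels as deposited it was 0.15 for Clca1 and -0.072 for Fcgbp, and with the second stretch 47 rows above, chosen after seeing the data, -0.35 for Fcgbp; those settings read other rows. Slc26a4 under labels as deposited or in replicates 1 and 2 or 3 and 4 alone, and Muc5b under either other label position, fell under the filter in those fits; the Slc26a4 values by replicate numbers above are differences of means.

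On arrays labelled BALB-RAG no alternative called a member: limma adjusted p ran from 0.130 to 0.921 for Clca1, 0.724 to 1 for Muc5b and 0.869 to 1 for Fcgbp; Slc26a4 was low there and its estimates are background. Estimates with 1 array left out ran from -3.19 to -1.62 for Clca1, -0.40 to 0.14 for Muc5b, -0.092 to 0.039 for Fcgbp and 0.51 to 0.92 for Slc26a4. Muc5b was 0.0013 with arrays centred and 0.29 in replicates 1 and 2, and Fcgbp was 0.11 in replicates 1 and 2. Clca1 was -0.55 in replicates 1 and 2 and -3.82 in replicates 3 and 4. The cause of these shifts was not tested. Slc26a4 was 0 with values under log2 4 set to 4, because every array there was low. Clca1 was 0.22 with labels as deposited, which read another row. The limma adjusted p of 0.921 for Clca1 came from that setting.

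Genes called on those arrays, 12 by the design used, numbered 21 with all probe sets averaged, 21 with a filter at log2 6, 22 with 16 added, 21 with arrays centred, 26 with quantile normalisation, 3 in replicates 1 and 2 alone, 20 in replicates 3 and 4 alone and 5 with the 2 groups alone. They ran from 6 to 42 with 1 array left out: 42 without OVA replicate 2, 6 without OVA replicate 4 or PBS replicate 1, 7 without OVA replicate 1 or 3, and 24 without BALB/c OVA replicate 3. Without the 3 arrays with squamous keratins, a setting added after seeing the data, limma called 0, with 445 at an unadjusted p under 0.05. In BALB/c the count, 1128, was 527 in replicates 3 and 4 alone and 790 to 1168 with 1 array left out.

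Replicate numbers do not show pairing: same-numbered arrays had residual correlations of 0.0253 to 0.497 (24 pairs, median 0.3). Differently numbered arrays both from replicates 1 and 2 or both from 3 and 4 had 0.123 to 0.475 (24 pairs, median 0.314), and arrays across these sets -0.461 to -0.0156 (48 pairs, median -0.316). With the replicate block 1764 genes were called in BALB/c and 41 on arrays labelled BALB-RAG, and with a term for replicates 1 and 2 against 3 and 4 the counts were 1820 and 67. The replicate block changed no member's call. Values under log2 4, most of Slc26a4 outside BALB/c OVA, are limited by background.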

Other observations

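Capn9, a calpain protease that was too low to test, read 3.49 to 5.08 in BALB/c given OVA, with a mean of 4.15, against means of 2.63, 2.56 and 2.62 in BALB/c given PBS, BALB-RAG given PBS and BALB-RAG given OVA. Retnlb, a goblet cell product of the gut, had a mean of 2.48 in BALB/c given OVA and 2.07 to 2.13 in the other groups. Tff3, a trefoil peptide of intestinal goblet cells, had a mean of 3.75 in BALB/c given OVA against 4.09 after PBS, while Tff2 stood at 7.83 against 5.21. The Tff3 mean after OVA included replicate 4 at 2.97, against 3.85 to 4.22 on replicates 1 to 3. Retnlb and Tff3 were too low to test as well, so no change is read from their values.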
